A study of Mus musculus with 42 samples.

Results

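The urea cycle and amino acid catabolism genes are a list of 42 liver enzymes that feed amino acid nitrogen into urea and break down the carbon chains of single amino acids. Every probe of the Illumina Mouse Ref8 v2 array whose annotated symbol was one of these genes was taken, which gave 56 probes for 39 of the 42 genes, among 8903 genes with a tested probe on the array. Hgd, Sds and Sdsl matched no probe by symbol and were not analysed here. RNA came from the livers of 42 C57BL6/N mice aged 25 months, 1 array per mouse, which from 19 months of age had been fed 14 ppm rapamycin (Rapa) or control chow, in both cases over 6 months. The groups were 9 control females, 11 Rapa females, 10 control males and 12 Rapa males. The control chow held Eudragit capsules alone, and the mice were not fasted before the livers were taken. The question was which of these enzymes changed with Rapa when feeding began late in life, in each sex, and how the sexes differed. Levels are log2 of the deposited signal after quantile normalization over all arrays. Differences are on the same log2 scale with their standard error (SE), and a transcript (probe) was called changed at a limma adjusted p under 0.05, by the Benjamini-Hochberg method over 12719 tested probes, and an absolute log2 difference over 0.15. In whole liver, fewer cells of a type and less RNA per cell cannot be told apart.

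Amino acids that are not used for protein lose their nitrogen by transamination and by release of ammonia from glutamate. Periportal hepatocytes condense that nitrogen into urea through carbamoyl phosphate, citrulline, argininosuccinate and arginine, and the first of these steps needs N-acetylglutamate as its activator. Each carbon chain then has its own route, and many of these routes run almost entirely in hepatocytes and respond to glucagon, glucocorticoids and feeding.

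Of the 56 probes, 49 were detected on all 42 arrays and 55, for 38 genes, passed the filter on detection (at least 9 arrays). The probe of Tat, the first enzyme of tyrosine breakdown, was detected on no array, with levels of 6.51 to 7.01, and was not tested. Hepatocyte markers matched the label: 11 of 14 listed genes were tested, their summed level was 18.4 to 18.6 in every mouse, and all of them but Alb, whose probe was detected on 27 arrays, were detected on all 42. Some mice stood apart from their own groups. Control females 6 to 9 correlated with each other at an r of 0.372 to 0.471 over 9720 probes detected on no array, while no other pair of arrays exceeded 0.296. The Rapa females also fell into 2 sets by array brightness: Rapa females 1 to 4 had a median signal of 111.4 to 122.3 and a background (5th percentile of the signals) of 78.4 to 80.3, and Rapa females 5 to 11 had 142.5 to 153.5 and 102.4 to 107.7. Control females 1 to 5 had 110.6 to 124.4 and 76.5 to 89.3, and control females 6 to 9 had 141.7 to 151.7 and 86.8 to 89.7. Control male 3 had the lowest level of its group for 39 of the 55 tested probes, with a median difference of -0.54 from the other control males. Control female 9 was lowest of its group for 35 of the 55, with a median difference of -0.67. In control male 3 the summed level of the neutrophil markers was 15.63, against 11.1 to 12.0 in the other control males, and in control female 9 it was 17.0, the highest of all mice. Control female 5 had 16.8, with a median difference of -0.13 over the member probes. Control female 9 was also the highest of all mice for B and plasma cell (14.7) and T and NK cell (12.7) markers. Control male 3 had the lowest periportal (14.1) and the highest sinusoidal endothelial (14.2) sum. The part of these cell types was not tested. Counts and several results of the members are given with and without control females 6 to 9, or control male 3 and control female 9. Counts of related genes outside the list use all mice.

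The sequence around the start site is described for the members, and it was not compared between members that rose and members that fell. RefSeq windows of 300 bases (build GRCm38.p6, ending 50 bases after the annotated start) matched 33 of the 42 members with 35 windows. Both strands were searched for the TATA box (TATAAA), the CCAAT box (CCAAT), the E-box CACGTG, the C/EBP palindrome TTGCGCAA, the cyclic AMP response element TGACGTCA and the nuclear receptor motif CAAAGTCCA, and none of these motifs contains another. CCAAT was found in 18 of the 35 windows (51.4%) and in 37.4% of all 32851 windows, TATAAA in 3 (8.57%, against 13.6%), CACGTG in 2 (5.71%, against 7.15%), and the other motifs in none. The median GC content was 57.7% in the members and 52.7% in all windows. The 4 windows printed here belong to the member with the largest fall in Rapa females (Nit2), a tryptophan enzyme that also fell (Tdo2), a member whose probes both rose (Cbs) and a member whose probes moved in opposite directions (Aass). Capitals mark a match to a searched motif on either strand, and each window is printed in the direction of transcription. Nit2 lies at chr16:57167283-57167582 (minus strand), Tdo2 at chr3:81975679-81975978 (minus), Cbs at chr17:31637156-31637455 (minus) and Aass at chr6:23132937-23133236 (minus).
Nit2: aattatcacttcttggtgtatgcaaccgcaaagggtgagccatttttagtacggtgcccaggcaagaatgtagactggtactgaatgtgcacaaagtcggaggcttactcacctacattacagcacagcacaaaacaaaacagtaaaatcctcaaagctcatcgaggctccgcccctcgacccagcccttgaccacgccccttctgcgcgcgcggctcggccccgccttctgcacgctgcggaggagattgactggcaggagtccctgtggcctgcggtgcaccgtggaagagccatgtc
Tdo2: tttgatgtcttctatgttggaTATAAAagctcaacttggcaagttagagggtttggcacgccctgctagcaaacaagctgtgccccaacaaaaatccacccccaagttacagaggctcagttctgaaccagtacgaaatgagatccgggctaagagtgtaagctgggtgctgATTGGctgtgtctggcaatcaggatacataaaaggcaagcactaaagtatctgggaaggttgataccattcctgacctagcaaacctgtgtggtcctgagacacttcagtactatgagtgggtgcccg
Cbs: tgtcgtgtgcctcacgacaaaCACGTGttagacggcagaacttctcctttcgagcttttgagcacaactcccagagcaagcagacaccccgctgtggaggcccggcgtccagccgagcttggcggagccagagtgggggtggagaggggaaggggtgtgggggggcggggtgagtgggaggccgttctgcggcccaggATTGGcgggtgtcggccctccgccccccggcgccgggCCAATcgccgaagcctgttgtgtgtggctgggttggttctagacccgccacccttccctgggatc
Aass: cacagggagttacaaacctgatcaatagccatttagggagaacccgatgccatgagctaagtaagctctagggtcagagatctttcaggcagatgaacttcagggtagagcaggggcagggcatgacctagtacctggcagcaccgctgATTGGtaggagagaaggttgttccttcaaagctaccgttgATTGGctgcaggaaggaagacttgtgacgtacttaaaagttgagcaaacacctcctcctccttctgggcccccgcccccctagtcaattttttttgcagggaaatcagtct
The Nit2 window held no match, the Tdo2 window 1 TATAAA and 1 CCAAT, the Cbs window 1 CACGTG and 2 CCAAT, and the Aass window 2 CCAAT. Their GC content was 56.0% (Nit2), 47.7% (Tdo2), 66.7% (Cbs) and 50.3% (Aass). A match is a description of letters and not a measured binding site.

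In Rapa females, 13 of the 55 probes changed (23.6%), 7 higher and 6 lower than in control females, in 10 genes. Over all tested probes 21.6% changed in this comparison (12.2% higher and 9.37% lower), so the share among the members was close to the background. Under scaling of each array by its median in place of quantile normalization the split was 10 higher and 3 lower, with 11.4% of all probes higher and 6.93% lower. Leaving out control male 3 and control female 9 was an alternative chosen after seeing the data. It gave 13 changed probes, 4 higher and 9 lower, with 10.4% of all probes higher and 9.1% lower. Control female 9 was lowest of its group for 35 of the 55 probes, so leaving it out lowers their female differences. In Rapa males 0 of the 55 probes changed by limma, against a background of 0.653%, and 9 (16.4%) had an unadjusted p under 0.05, as did 12.8% of all probes. The difference between the Rapa effects in females and males passed for 12 probes (21.8%, 6 higher and 6 lower in females), in 9 genes, against a background of 20.4% (11.9% higher and 8.51% lower). The median difference over the 55 probes was 0.04 in females, beside 0.02 over all tested probes, and 0.03 in males, beside -0.0045 (median scaling turned the male median of the members to -0.23). With all mice included, the members did not move as a block. Glud1, Nags, Cbs and Gpt2 rose in females, while Tdo2, Kmo, Dmgdh, Got1 and 1 of the 2 Nit2 probes fell. Without control females 6 to 9, 0 member probes rose and 3 fell, beside 2.37% of all tested probes higher and 4.64% lower. Those 3 were the Dmgdh probe and both Nit2 probes, so the calls of a rise depended on control females 6 to 9.

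**Figure D1:**
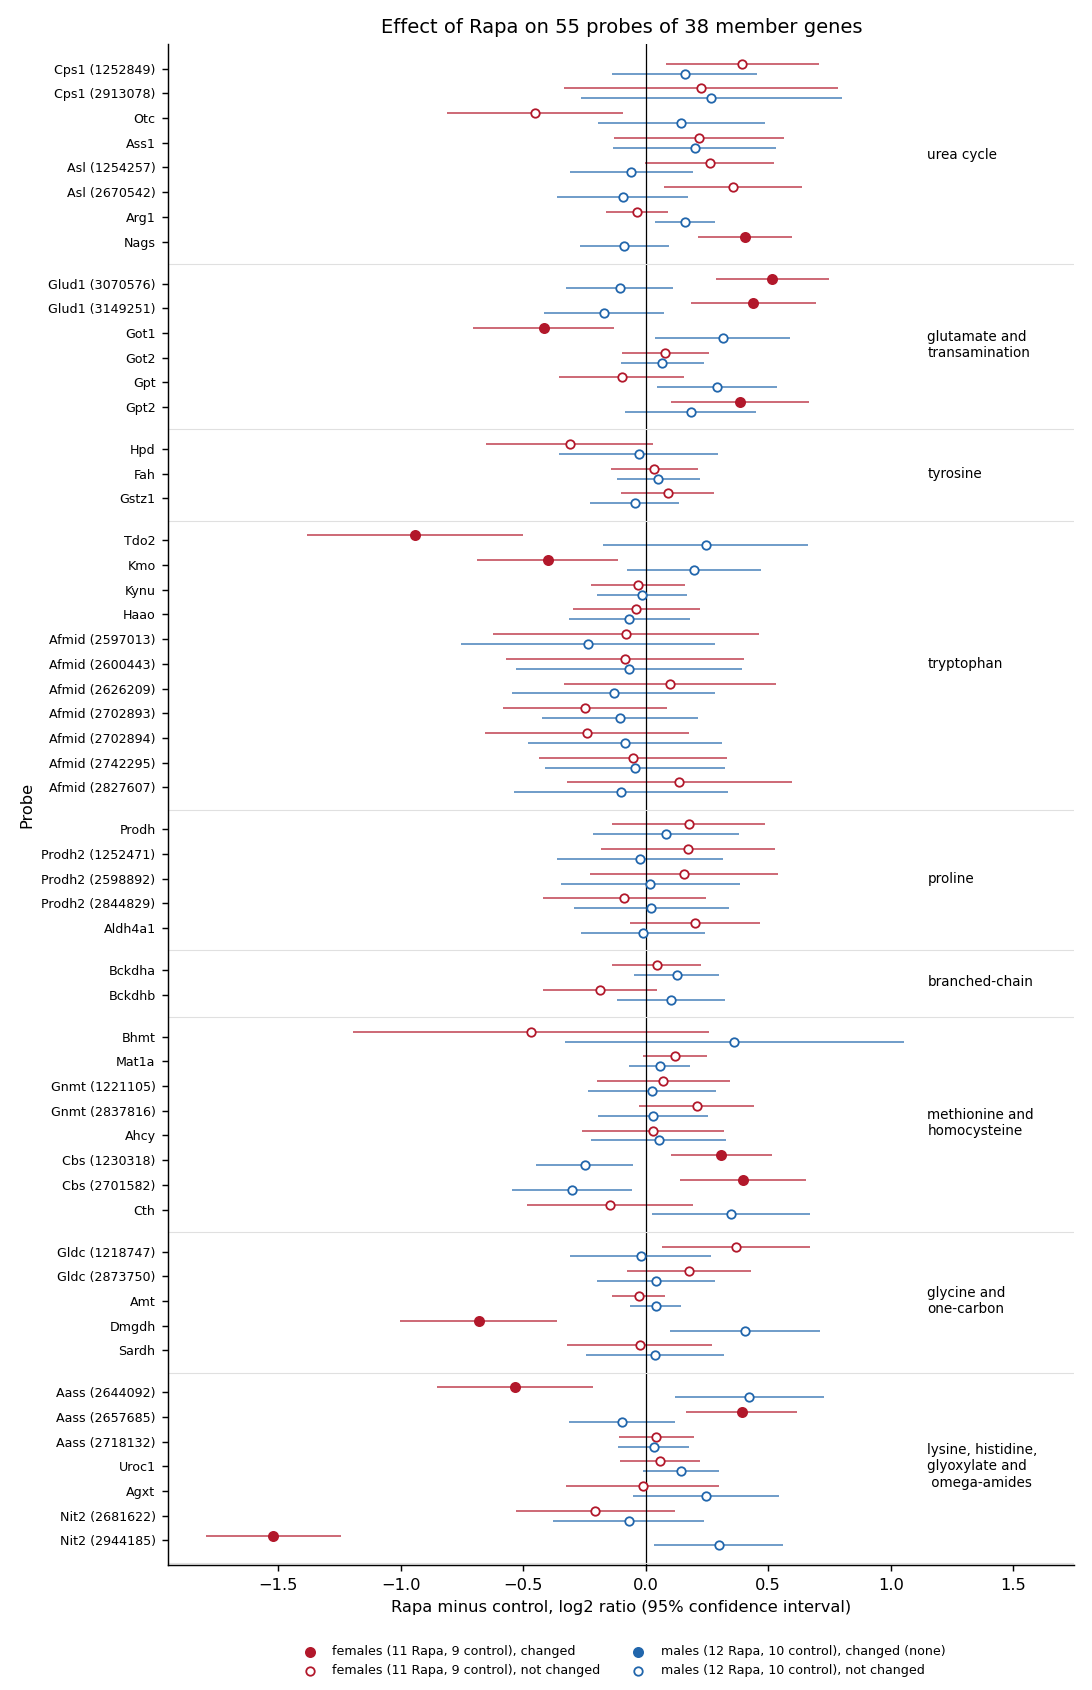
Rapa minus control (log2 ratio, with 95% confidence interval) for each of the 55 tested probes, ordered by pathway, in females (red) and males (blue). Filled points mark the 13 probes that changed in females; no male point is filled, and the Nit2 probe at the bottom is the farthest from 0.

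The urea cycle held 8 tested probes for 6 enzymes, and only Nags changed with Rapa. Nags makes N-acetylglutamate, the activator of carbamoyl phosphate synthetase. Its level was 7.62 to 8.64 (median 8.30) in control females against 8.36 to 8.83 (8.61) in Rapa females, 7.92 to 8.43 (8.28) in control males and 7.88 to 8.59 (8.17) in Rapa males. All 11 Rapa females lay above the mean of control females, although the groups overlapped. The increase was 0.40 (SE 0.09, limma adjusted p = 0.0016) in females, the male difference was -0.09 (SE 0.09, adjusted p = 0.75), and the difference between the sexes was 0.49 (adjusted p = 0.0057). Of the cycle itself, Cps1, which makes carbamoyl phosphate from ammonia, ranged from 12.80 to 13.65 (median 13.38) in control females and from 13.44 to 14.31 (13.67) in Rapa females on its probe ILMN_1252849, a difference of 0.39 (SE 0.15) with an adjusted p of 0.060. Its other probe differed by 0.22 (SE 0.28, adjusted p = 0.61). Asl, which splits argininosuccinate into arginine and fumarate, differed by 0.26 and 0.36 on its 2 probes (adjusted p = 0.15 and 0.058), and Ass1, the preceding enzyme, by 0.22 (SE 0.17, adjusted p = 0.39). Otc, which forms citrulline in mitochondria, had an estimate of -0.45 (SE 0.18, adjusted p = 0.060). Without control male 3 and control female 9 Otc fell by 0.59 in females (limma adjusted p = 0.0043). That alternative was chosen after seeing the data, so this call is no separate evidence of a fall. Arg1, which releases urea, differed by -0.03 in females (95% interval -0.16 to 0.09) and by 0.16 in males (0.04 to 0.28, adjusted p = 0.22).

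Enzymes that move nitrogen through glutamate included the members that rose most in Rapa females. Glud1, glutamate dehydrogenase, releases ammonia from glutamate in mitochondria, and both of its probes rose. On ILMN_3070576 its level was 8.61 to 9.63 (median 9.42) in control females, 9.37 to 10.25 (9.77) in Rapa females, 9.15 to 9.72 (9.45) in control males and 9.07 to 9.73 (9.34) in Rapa males. All 11 Rapa females were above the mean of control females, and the 2 groups overlapped. The increase was 0.52 (SE 0.11, limma adjusted p = 0.00085) in females, a level 43.1% higher, while the male difference was -0.11 (SE 0.11, adjusted p = 0.75). On ILMN_3149251 control females had 10.72 to 11.62 (median 11.46) and Rapa females 11.21 to 12.27 (11.72), an increase of 0.44 (SE 0.13, adjusted p = 0.0099). The difference between the sexes passed on both probes, with 0.62 (adjusted p = 0.0037) and 0.61 (adjusted p = 0.010).

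Of the 4 transaminases, 1 rose and 1 fell in Rapa females. Gpt2, the mitochondrial alanine transaminase, was 11.12 to 12.01 (median 11.54) in control females against 11.53 to 12.50 (11.89) in Rapa females and rose by 0.38 (SE 0.14, limma adjusted p = 0.041). The cytosolic enzyme Gpt differed by -0.10 in females (95% interval -0.35 to 0.16). Got1, the cytosolic aspartate transaminase, was 8.93 to 9.90 (median 9.39) in control females, 8.66 to 9.81 (8.81) in Rapa females, 8.07 to 9.06 (8.37) in control males and 8.08 to 9.24 (8.79) in Rapa males. It fell in females by 0.42 (SE 0.14, adjusted p = 0.030), with 10 of 11 Rapa females under the mean of control females, and its male estimate was 0.31 (SE 0.14, adjusted p = 0.30). The sexes differed in this effect by -0.73 (SE 0.20, adjusted p = 0.0065). The mitochondrial enzyme Got2 differed by 0.08 in females (-0.10 to 0.26) and 0.07 in males (-0.10 to 0.24). Leaving out any 1 of control females 5 to 8 or Rapa females 2, 7 and 9 ended the female call of Got1, with estimates from -0.50 to -0.35 over all single mice left out and an adjusted p up to 0.085. Leaving out any 1 of control females 1, 2, 5, 6, 7 and 9 or Rapa females 2, 6, 7 and 9 ended that of Gpt2, with estimates from 0.33 to 0.44 and an adjusted p up to 0.10.

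Of the 11 probes for 5 tryptophan enzymes, 2 (18.2%) fell in Rapa females and 0 rose, beside 9.37% of all tested probes lower and 12.2% higher. Tdo2, tryptophan dioxygenase, opens the ring of tryptophan and sets the rate of the kynurenine route in liver. Its level was 8.49 to 10.14 (median 9.59) in control females, 7.79 to 9.12 (8.71) in Rapa females, 8.36 to 9.79 (9.03) in control males and 8.30 to 10.53 (9.52) in Rapa males. All 11 Rapa females lay under the mean of control females, and the groups overlapped through 1 low control female. Tdo2 fell by 0.94 (SE 0.22, limma adjusted p = 0.0015) in females, a change of -48.0%, and its male estimate was 0.24 (SE 0.21, adjusted p = 0.69). The effects in females and males differed by -1.19 (SE 0.30, adjusted p = 0.0040). Kmo, the hydroxylase of kynurenine, was 10.37 to 11.29 (median 10.92) in control females against 9.94 to 10.99 (10.43) in Rapa females and fell by 0.40 (SE 0.14, adjusted p = 0.036). Leaving out any 1 of control females 5 to 8 or Rapa females 1, 7, 9 and 11 ended this call, with estimates from -0.47 to -0.35 and an adjusted p up to 0.088. For Kmo the sexes differed by -0.60 (SE 0.20, adjusted p = 0.025). Afmid, the formamidase between these steps, had 7 probes with female differences of -0.25 to 0.14, none past the threshold. Kynu and Haao, which act after Kmo, differed by -0.03 (95% interval -0.23 to 0.16) and -0.04 (-0.30 to 0.22).

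Tyrosine, proline and branched-chain amino acid enzymes held 10 tested probes in 8 genes, of which 0 changed with Rapa in either sex by limma. Over all tested probes 21.6% changed in females and 0.653% in males. None of the 10 had an unadjusted limma p under 0.05, beside 4454 of 12719 tested probes in females and 12.8% in males. Hpd, Gstz1 and Fah act at successive steps on the products of tyrosine transamination and differed by -0.31 (SE 0.17), 0.09 (SE 0.09) and 0.04 (SE 0.09) in females. Without control male 3 and control female 9 Hpd fell by 0.46 in females (limma adjusted p = 0.016). Control female 9 had the lowest Hpd level of its group (11.80, with 12.86 next), so leaving it out must lower this estimate. That call is therefore no separate evidence of a fall. Prodh, which oxidizes proline, Prodh2, which oxidizes hydroxyproline, and Aldh4a1, which finishes both routes, differed by -0.09 to 0.20 in females. Bckdha and Bckdhb, the subunits of the decarboxylase of branched-chain keto acids, differed by 0.04 (95% interval -0.14 to 0.23) and -0.19 (-0.42 to 0.04).

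Among the methionine and homocysteine enzymes only Cbs changed. Cbs, cystathionine synthase, commits homocysteine to cysteine, and both of its probes rose in Rapa females. On ILMN_2701582 its level was 10.38 to 11.56 (median 11.38) in control females, 11.28 to 11.72 (11.64) in Rapa females, 10.99 to 11.82 (11.17) in control males and 10.50 to 11.56 (10.84) in Rapa males. Rapa females were tightly placed at the top of the control range, all 11 above the mean of all control females. That mean was lowered by control females 6 to 9, which had 10.38 to 10.97 against 11.38 to 11.56 in the other control females. The range of Rapa females overlapped that of these other control females. Rapa males reached the lowest median of the 4 groups. The increase in females was 0.40 (SE 0.13, limma adjusted p = 0.020) and the male estimate -0.30 (SE 0.12, adjusted p = 0.26). On ILMN_1230318 the differences were 0.31 (SE 0.10, adjusted p = 0.025) and -0.25 (SE 0.10, adjusted p = 0.24). The sexes differed by 0.70 and 0.56 (adjusted p = 0.0036 and 0.0040). Both female calls of Cbs were lost, with smaller estimates, when control females 6 to 9 were left out together. Leaving out control female 9 ended the female call of both Cbs probes, and leaving out control female 6 that of ILMN_1230318, with estimates down to 0.30 and 0.23 and adjusted p-values up to 0.069 and 0.084. Mat1a and Gnmt, which make and use the methyl donor S-adenosylmethionine, differed by 0.07 to 0.21 in females, Ahcy by 0.03 (95% interval -0.26 to 0.32), Cth by -0.15 (-0.49 to 0.19) and Bhmt by -0.47 (-1.20 to 0.26).

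In the glycine and one-carbon group, Dmgdh fell. Dmgdh oxidizes dimethylglycine, the product that Bhmt leaves from betaine. Its level was 10.51 to 11.27 (median 10.87) in control females, 9.58 to 10.55 (10.17) in Rapa females, 9.09 to 10.52 (10.12) in control males and 9.71 to 11.12 (10.43) in Rapa males. Only the top of the Rapa range reached the bottom of the control range, and all 11 Rapa females were under the mean of control females. The decrease was 0.68 on the log2 scale (-0.68, SE 0.16, limma adjusted p = 0.0016) in females, the male estimate was 0.41 (SE 0.15, adjusted p = 0.22), and the sexes differed by -1.09 (SE 0.22, adjusted p = 0.00037). Sardh, which oxidizes the next product, sarcosine, differed by -0.03 (95% interval -0.32 to 0.27). Gldc, the decarboxylase of glycine, had estimates of 0.37 and 0.18 in females (adjusted p = 0.069 and 0.33), and Amt, its partner, of -0.03.

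Nit2 showed the largest change of any member. Nit2 is omega-amidase, which hydrolyses the omega-amides of glutamine and asparagine left by transamination, and it has 2 probes. On ILMN_2944185 its level was 9.44 to 10.58 (median 9.97) in control females, 7.78 to 9.00 (8.37) in Rapa females, 8.37 to 9.19 (8.89) in control males and 8.64 to 9.46 (9.27) in Rapa males. Rapa females did not overlap control females, which was true of 1.79% of all tested probes, and they lay lower than control males by their median as well. The decrease was 1.52 (-1.52, SE 0.14, limma adjusted p = 1.4e-10), a change of -65.2%, and the male estimate was 0.30 (SE 0.13, adjusted p = 0.31). The difference between the sexes was -1.82 (SE 0.19, adjusted p = 4.0e-09). The other probe, ILMN_2681622, was 9.87 to 11.71 (median 11.26) in control females against 10.28 to 11.55 (10.97) in Rapa females, a difference of -0.21 (SE 0.16, adjusted p = 0.38). The 2 probes correlated at an r of 0.689 over the 42 mice after group means were removed, and both are annotated to the same RefSeq transcript. The change of this size was measured by one probe and not by the other.

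Aass, the first enzyme of lysine breakdown, had probes that moved in opposite directions. ILMN_2644092 was 9.58 to 10.74 (median 10.12) in control females, 9.17 to 10.20 (9.57) in Rapa females, 8.77 to 9.75 (9.48) in control males and 9.21 to 10.32 (9.78) in Rapa males, and it fell in females by 0.53 (SE 0.16, limma adjusted p = 0.012). ILMN_2657685 was 7.12 to 8.18 (median 7.92) in control females against 7.78 to 8.43 (8.23) in Rapa females, and it rose by 0.39 (SE 0.11, adjusted p = 0.0096). The third probe, ILMN_2718132, differed by 0.04 (SE 0.08, adjusted p = 0.73). The sexes differed by -0.96 and 0.49 on the first 2 probes (adjusted p = 0.0014 and 0.021). Within groups these 2 correlated at an r of 0.0533, the lowest of the 34 pairs of probes of 1 gene, so no direction is given for the gene. In the same group Uroc1, urocanase of histidine breakdown, differed by 0.06 (95% interval -0.11 to 0.22) and Agxt, which removes glyoxylate, by -0.01 (-0.33 to 0.30) in females.

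**Figure D2:**
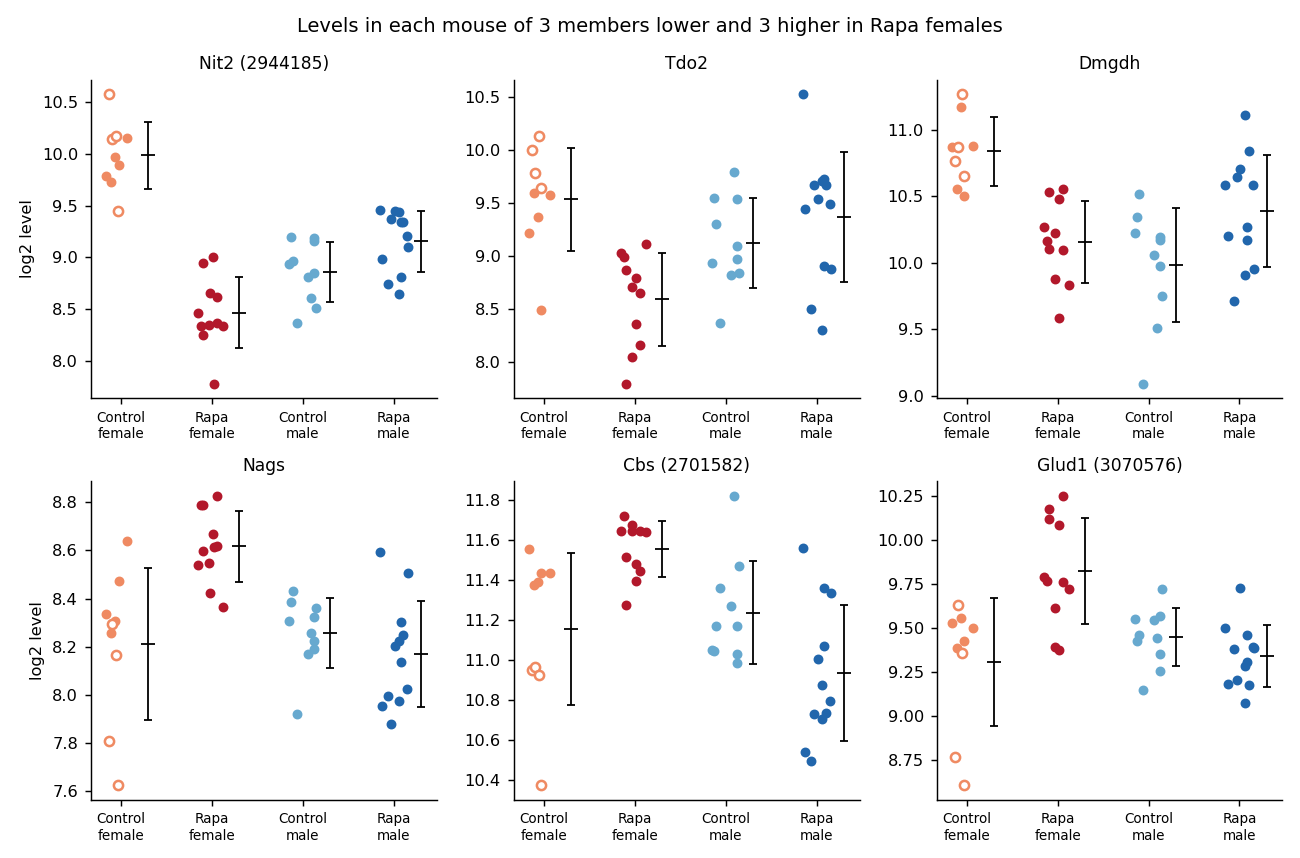
The log2 level of 6 probes in each mouse, by group, with the group mean and SD at the right of the points; open points are control females 6 to 9. Nit2 separates Rapa from control females without overlap, while in Nags, Cbs and Glud1 some of the open points are the lowest of the control females.

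**Figure D3:**
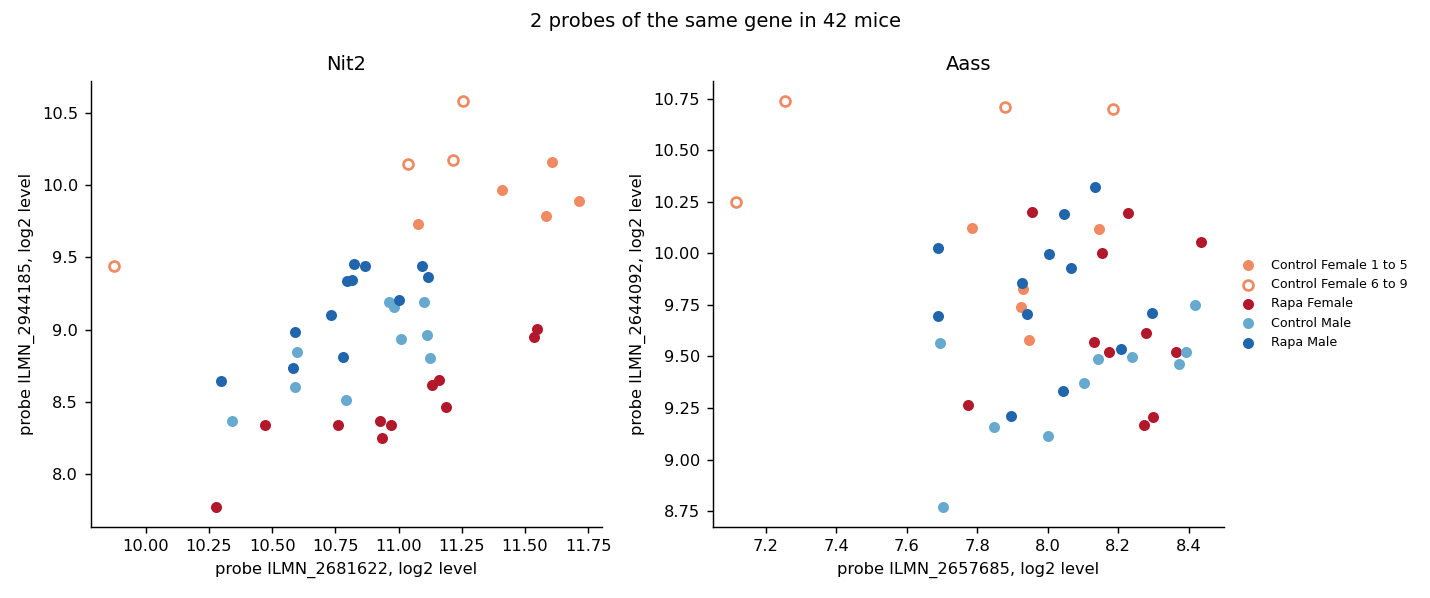
The log2 level of one probe against another probe of the same gene in 42 mice, coloured by group, for Nit2 and Aass. On ILMN_2944185 the Rapa females of Nit2 lie between 7.78 and 9.00, and in Aass the 2 probes do not follow each other (r of 0.0533 within groups).

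Control females 6 to 9 carried much of the female comparison. Without them 3 of the 55 probes changed with Rapa in females, 0 higher and 3 lower (5.45%, with a background of 7.01% over all tested probes, 2.37% higher and 4.64% lower). The 3 were Nit2 on ILMN_2944185 (-1.44, limma adjusted p = 6.3e-08), Dmgdh (-0.64, adjusted p = 0.039) and the other Nit2 probe (-0.49, adjusted p = 0.049). The other 11 calls were lost. Gpt2 had about the same estimate, 0.39 (adjusted p = 0.17), and the other estimates moved toward 0: Tdo2 to -0.66 (0.13), Glud1 to 0.34 and 0.35 (0.053 and 0.14), Nags to 0.21 (0.17), Cbs to 0.11 and 0.15 (0.69 and 0.49), Got1 to -0.23 (0.48), Kmo to -0.23 (0.49), and Aass to -0.21 and 0.24 (0.54 and 0.20). The difference between the sexes then passed for 3 probes, Nit2 (-1.74), Dmgdh (-1.05, adjusted p = 0.0052) and Glud1 on ILMN_3070576 (0.45, adjusted p = 0.039), with a background of 8.96%. Between control females 1 to 5 and Rapa females 1 to 4 alone, the sets with like signal and background, 1 member probe changed (1.82%, against 1.71% of all probes), Nit2 on ILMN_2944185 (-1.10, adjusted p = 0.00082). For Aass on ILMN_2644092 control females 6 to 9 had 10.25 to 10.74 and control females 1 to 5 had 9.58 to 10.12, and for Cbs on ILMN_2701582 they had 10.38 to 10.97 and 11.38 to 11.56, without overlap in either case. The summed level of B and plasma cell markers (6 of 10 listed genes tested) lay between 11.8 and 14.7 in these 4 mice and between 11.5 and 12.5 in the other 5, and its part in these results was not tested.

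**Figure D4:**
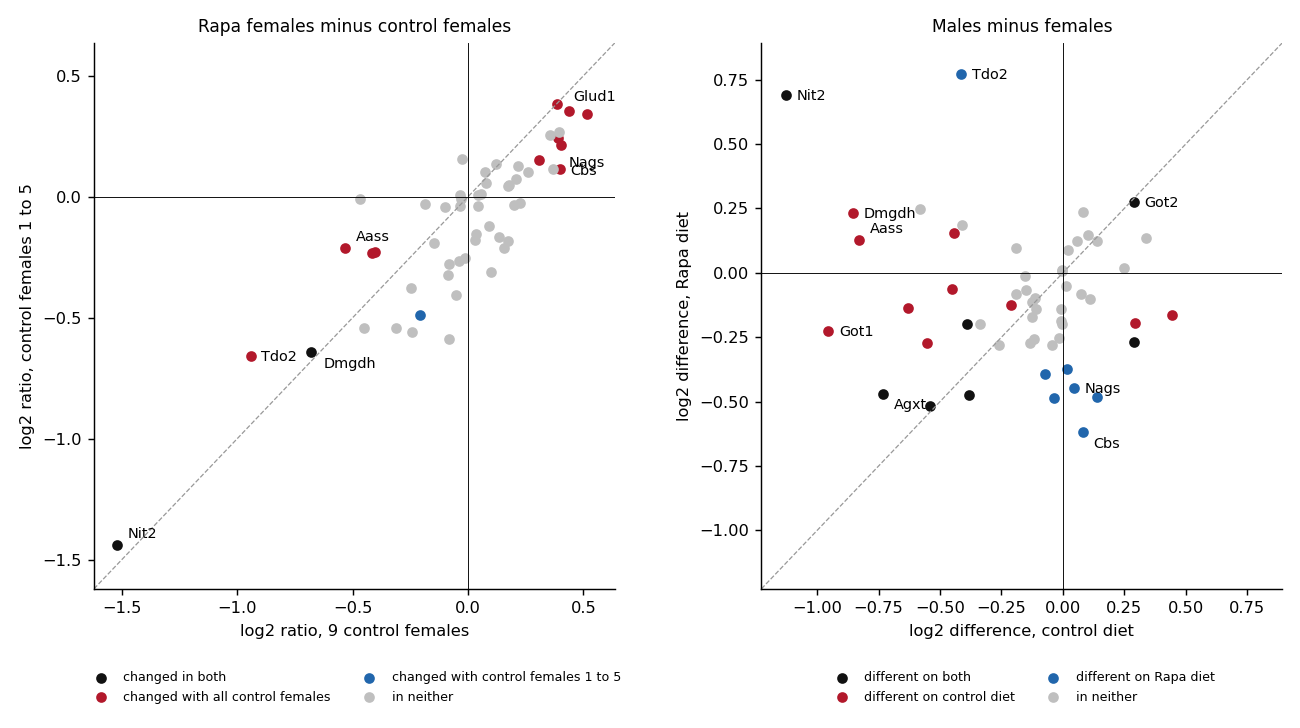
Each point is 1 of the 55 probes. Left, the log2 ratio of Rapa to control females with all 9 control females (x axis) and with control females 1 to 5 only (y axis); right, the log2 difference of males from females on the control diet (x axis) and on the Rapa diet (y axis). On the left 2 probes changed with both sets, Nit2 (ILMN_2944185) and Dmgdh. On the right that Nit2 probe lies at -1.13 and 0.69.

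On the control diet, 17 of the 55 probes differed between males and females, 4 higher and 13 lower in males, in 16 genes (30.9%). The background was 40.2% of all tested probes (22.5% higher and 17.7% lower). The median over the members was -0.11, beside 0.02 over all tested probes, but it turned to 0.12 under median scaling, beside 0.14 over all tested probes. Under that scaling 7 member probes (12.7%) were higher in males and 6 (10.9%) lower, with 37.2% of all probes higher and 11.5% lower. The control mice here are those of the diet comparisons. Nit2 on ILMN_2944185 differed with no overlap, control males being the lower group (-1.13, SE 0.14, limma adjusted p = 3.4e-08), and Arg1 did too. Arg1 was 14.43 to 14.72 (median 14.55) in control females against 13.87 to 14.39 (14.18) in control males, a difference of -0.39 (SE 0.06, adjusted p = 5.4e-06), and such a lack of overlap held for 6.48% of all tested probes.

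The other members lower in control males were of several routes. Got1 differed by -0.95 (SE 0.15, limma adjusted p = 1.7e-06), Dmgdh by -0.85 (SE 0.16), Aass on ILMN_2644092 by -0.83 (SE 0.16) and Agxt, with 10.86 to 12.49 (median 12.32) in control females against 11.13 to 11.67 (11.38) in control males, by -0.73 (SE 0.16, adjusted p = 0.00027). Cth, which releases cysteine from cystathionine, differed by -0.63 (SE 0.17), Hpd by -0.55 (SE 0.17), Ahcy by -0.54 (SE 0.15), Gpt by -0.45 (SE 0.13), Kmo by -0.44 (SE 0.15), Prodh by -0.38 (SE 0.16) and Uroc1 by -0.21 (SE 0.08), with adjusted p-values up to 0.049. Under median scaling the difference of Uroc1 was 0.04 (adjusted p = 0.80). The calls of Prodh and Uroc1 were each ended by leaving out any 1 of several mice, 12 of 19 for Prodh (control males 3, 5, 6, 7, 8 and 10 and control females 1, 2, 3, 4, 6 and 8, estimates -0.48 to -0.32) and 9 of 19 for Uroc1 (control males 1, 2, 3, 5 and 6 and control females 2, 4, 7 and 8, estimates -0.25 to -0.16). The members higher in control males were Glud1 on ILMN_3149251 (0.44, SE 0.13), Aass on ILMN_2657685 (0.29, SE 0.11), Cbs on ILMN_1230318 (0.29, SE 0.11) and Got2 (0.29, SE 0.09, adjusted p = 0.0087). That of Aass was ended by leaving out any 1 of control males 4, 5, 7, 8 and 9 or control females 6 and 9 (estimates 0.21 to 0.34), and that of Cbs by control male 1 or control female 9 (estimates 0.21 to 0.32). Without control females 6 to 9, 15 probes differed, all 15 of them lower in males (background 25.7%, with 13.8% higher and 11.8% lower), among them Agxt (-0.97), Hpd (-0.79), Got1 (-0.77), Ahcy (-0.75) and both Nit2 probes (-1.05 and -0.62).

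On the Rapa diet 14 of the 55 probes differed between the sexes, 3 higher and 11 lower in males, in 12 genes (25.5%, with a background of 32.2%, 15.8% higher and 16.3% lower). This comparison uses the same Rapa mice as the diet comparisons and shares none with the control-diet comparison of the sexes. The lower members included both Cbs probes (-0.62, SE 0.12, limma adjusted p = 7.4e-05, and -0.27, SE 0.10), Nags (-0.45, SE 0.09, adjusted p = 0.00011), both Asl probes (-0.39 and -0.48), Glud1 on ILMN_3070576 (-0.48, SE 0.11) and Gldc on ILMN_1218747 (-0.37, SE 0.14). The call of Gldc was ended by leaving out any 1 of Rapa males 6 and 9 or Rapa females 1, 2, 4, 6 and 7 (estimates -0.43 to -0.34). Of these members, all but the Cbs probe ILMN_1230318, which was higher in control males, had control-diet differences that did not pass. Ahcy (-0.52), Agxt (-0.47), Prodh (-0.47) and Arg1 (-0.20) were lower in males on both diets, and Got2 was higher in males on both (0.28 on Rapa, SE 0.08, adjusted p = 0.0073). The difference of Nit2 on ILMN_2944185 changed sign between the diets, to 0.69 (SE 0.13, limma adjusted p = 4.1e-05), with all 12 Rapa males above the mean of Rapa females. The other Nit2 probe, ILMN_2681622, did not change sign: it had -0.34 on the control diet and -0.20 on Rapa and passed on neither. The difference of Tdo2 was 0.77 (SE 0.20, limma adjusted p = 0.0027) after -0.41 (adjusted p = 0.13) on the control diet.

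Single markers of other cell types also differed between the sexes, while their summed levels were not tested. The sum of the neutrophil markers (11 of 14 listed genes tested) ranged from 11.6 to 17.0 in control females, 11.6 to 16.4 in Rapa females, 11.1 to 15.6 in control males and 11.9 to 14.8 in Rapa males. Of their 11 probes, 7 (63.6%) were lower in males on the control diet, beside 17.7% of all tested probes. On the Rapa diet 5 (45.5%) were lower in males, beside 16.3% of all. With Rapa 0 changed in either sex by limma (0 with an unadjusted p under 0.05), beside 21.6% of all tested probes in females and 0.653% in males. Of the 12 probes of Kupffer cell and macrophage markers 6 were lower in control males, and of the 14 hepatocyte probes 7 were lower and 1 higher. In Rapa females 4 of the 14 hepatocyte probes (28.6%) and 4 of the 13 sinusoidal endothelial probes (30.8%) were lower than in control females and 0 were higher. Over all tested probes 9.37% were lower and 12.2% higher. Without control females 6 to 9 there was 1 lower probe of each list, beside 4.64% of all tested probes.

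Markers of the liver zones had summed levels that were close between groups, while some single markers differed. The pericentral hepatocyte markers (10 of 11 tested) had a median summed level of 16.2 in control females, 16.3 in Rapa females, 16.5 in control males and 16.3 in Rapa males, and the periportal markers (8 of 11 tested) 14.9 in every group. Of the 15 pericentral probes 1 was higher and 3 were lower in Rapa females, beside 12.2% of all tested probes higher and 9.37% lower. By sign, 8 of the 15 differences were below 0 and 7 above. Glul, which makes glutamine from glutamate and ammonia in pericentral cells, fell by 1.10 (limma adjusted p = 2.0e-05) and Rgn, which binds calcium, by 1.25 (adjusted p = 9.9e-06). Without control females 6 to 9 both remained lower, by estimates of -0.84 (adjusted p = 0.0094) and -0.97 (adjusted p = 0.0046). Of the 12 periportal probes 1 (8.33%) was lower in Rapa females, beside 9.37% of all tested probes. Between the sexes 7 (58.3%) differed on the control diet, 2 higher and 5 lower in males, beside 40.2% of all tested probes. On the Rapa diet 7 (58.3%) differed, 3 higher and 4 lower, beside 32.2% of all. The part of these cell types and zones in the differences of the members was not tested.

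As a description of variation from mouse to mouse after group means were removed, the 1451 pairs of probes of different member genes had a median r of 0.333 over the 42 mice, and all pairs of tested probes had a median of 0.000963. In absolute size the median r was 0.336 for the members and 0.181 for all pairs. Control male 3 and control female 9, the lowest of their groups for many members, enter these values, and without them the median r of the members was 0.191 (0.244 in absolute size, against 0.173 for all pairs). These values describe mice measured on 1 array each, and probes of a mouse share its RNA. Over all 42 mice the closest pair of different genes was Hpd and Prodh2 (r of 0.865), followed by Nit2 on ILMN_2681622 with Hpd (0.847) and Gstz1 with that Nit2 probe (0.845). The lowest was Fah with Bckdhb (-0.463). Probes of the same gene had a median r of 0.885.

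Related genes outside the list were measured by 125 tested probes for 83 genes: other catabolic enzymes, carriers of amino acids and urea cycle intermediates, and regulators. In Rapa females 35 changed (28.0%, background 21.6%), 16 higher and 19 lower, in Rapa males 1 (0.800%, background 0.653%), and the effects differed between the sexes for 26 (20.8%, background 20.4%). All values in this paragraph include control females 6 to 9, and how far they rest on those mice was not tested. Without those mice the background was 7.01% in females, 8.96% for the difference between the sexes and 25.7% for the sexes on the control diet. The lowest adjusted p-values in females were those of Slc3a2, the heavy chain of several amino acid exchangers (-1.03, SE 0.09, limma adjusted p = 2.9e-11), Mccc1, a subunit of the leucine carboxylase (-1.06, SE 0.13), Aldh8a1 of the kynurenine route on 1 of its 3 probes, ILMN_1226247 (-0.69, SE 0.08; the others had -0.25 and 0.26 and did not pass), and Nit1, an amidase related to Nit2, on ILMN_2732145 (-0.79, SE 0.11). The 1 probe that rose in males was Sqor, which oxidizes sulfide (0.49, SE 0.10, adjusted p = 0.015), and it fell in females (-0.64, SE 0.11). For the difference between the sexes the lowest adjusted p-values were those of Slc3a2 (-1.17), Mccc1 (-1.48), Sqor (-1.13) and Nit1 (-1.05). On the control diet 44 probes differed between males and females (35.2%, background 40.2%), led by Hao1 (1.146), Sqor (-0.96), Slc3a2 (-0.68) and Ppm1k (0.80). On the Rapa diet 48 differed (38.4%, background 32.2%), led by Aldh8a1 on ILMN_1226247 (0.62), Bhmt2 (-0.48), Mccc1 (0.77) and Dhtkd1 on ILMN_1258696 (0.53). Another Aldh8a1 probe, ILMN_2775723, differed in the opposite direction (-0.29, adjusted p = 0.020), so no direction is given for that gene.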

How the data were processed

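Liver RNA was labelled with biotin and hybridized to Illumina Mouse Ref8 v2 arrays. The authors extracted bead intensities with Genome Studios and deposited the intensity of 25697 probes per mouse without normalization, each with a detection score, a fraction that was turned here into a detection p (1 minus the score). The authors also deposited log2 values, quantile-normalized in Matlab, for 17082 probes. For this report the log2 of each signal was quantile-normalized. Testing took in the 12719 probes that reached a detection p below 0.05 in 9 or more mice. A linear model with a mean for each of the 4 groups, over all 42 arrays, was run in limma 3.58.1 (R 4.3.3, statmod 1.5.0) and was tested on simulated data first. Summaries used Python 3.11.15 with pandas 2.3.3 and matplotlib 3.10.9. Symbols and RefSeq accessions came from the platform annotation, coordinates and promoter windows from RefSeq (GRCm38.p6). The members and lists were chosen with earlier results of these data known. Every member was described, with values by group for those that passed, and of the related lists the 4 genes with the lowest adjusted p in each comparison. Marker sums were log2 of the summed signals of the brightest tested probe of each gene. Alternatives were the authors' log2 values, background correction (offset 16), median scaling, other detection filters and thresholds, the methods' t-test, the compared arrays alone, array weights, blocks, 1 probe per gene, and leaving out mice. The slide of an array was not known here. The labels do not say whether mice shared a cage or litter. The number of arrays limits the precision.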

Additional observations from a re-analysis of the deposited data

Results flagged for a closer look

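For 27 of the 110 probe and group pairs of 9 or 10 mice, the lowest mouse lay far from the rest by Dixon's criterion, which chance gives in about 1 of 20. Control male 3 was that mouse for 17. Its log2 levels were 12.16 and 13.77 for Gnmt, 10.68 for Prodh2, 12.27 and 10.25 for Cps1, 9.11 and 9.55 for Asl, 7.24, 7.34, 7.27, 7.17 and 7.87 for Afmid, 7.92 for Nags, 9.48 for Cth, 8.27 for Otc, 11.50 for Gpt and 9.46 for Ahcy. Control female 9 was that mouse for 9, with 12.95 for Gstz1, 10.41 for Cbs, 9.84 and 10.02 for Prodh2, 10.86 for Agxt, 9.87 for Nit2 on ILMN_2681622, 11.15 for Bckdha, 11.80 for Hpd and 10.30 for Cth. Control male 6 was lowest for Mat1a with 14.77.

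The Rapa effect in females differed from that in males by the limma test of the difference for 12 probes. The female minus male differences were -1.82 for Nit2 on ILMN_2944185, -1.19 for Tdo2, -1.09 for Dmgdh, -0.96 and 0.49 for Aass, -0.73 for Got1, -0.60 for Kmo, 0.70 and 0.56 for Cbs, 0.62 and 0.61 for Glud1 and 0.49 for Nags.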

How the results depend on the processing

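Of the 56 member calls in 5 comparisons, 56 held with the authors' normalized values, 55 with background correction, 46 with array weights, 44 under median scaling and 17 of 42 without control females 6 to 9; 46 held when each mouse was left out in turn. Under median scaling the median over all tested probes was 0.06 for Rapa in females and -0.13 in males. It was 0.19 for the difference between the sexes, 0.14 for the sexes on the control diet and -0.05 on Rapa. With quantile normalization these medians were 0.02, -0.0045, 0.03, 0.02 and -0.01 in the same order. Of the member probes 20 (36.4%) passed for the difference between the sexes under median scaling, 15 higher and 5 lower. Over all tested probes 36.8% passed, 4003 higher and 672 lower. In males 4 member probes changed under this scaling, all lower (both Cbs probes, Mat1a and Nags). Over all tested probes 18.6% did, 2354 of 2370 lower. Array weights gave 1 member probe in males, Aass, beside 3.86% of all tested probes. Median scaling turned the difference between the sexes of Fah to 0.39, the male effect of Mat1a to -0.32 and the control-diet sex difference of Uroc1 to 0.042. The cause was not tested. A log2 threshold of 0.5 left 5 member probes in females, 8 for the sexes on the control diet and 4 on Rapa. Of all tested probes it left 3.22%, 7.59% and 5.58%. With 1 probe per gene 9 member probes were left on Rapa, fewer probes being tested, beside 32.1% of all. Without control females 6 to 9 there were 3 in females and 3 for the difference between the sexes, beside 7.01% and 8.96% of all tested probes. With the sets of like array brightness, control females 1 to 5 and Rapa females 1 to 4, there were 1 and 3, beside 1.71% and 4.22%.

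With each mouse left out in turn, the member probes changed numbered 9 (without control female 6) to 16 (without control female 4) in females, 0 in males, 12 to 14 for the difference between the sexes, 14 to 18 for the sexes on the control diet and 13 to 15 on Rapa. Over all tested probes the numbers were 2215 to 2984, 28 to 91, 2281 to 2800, 4706 to 5353 and 3832 to 4140. The replicate numbers were not taken to pair the mice, since not every same-numbered pair correlated above 0.1: the deviations of such pairs correlated at -0.496 to 0.318 in males (median 0.139, 6 of 10 above 0.1) and at -0.372 to 0.49 in females (median 0.384, 6 of 9), and 2 of 10 control males and 2 of 9 control females correlated best with their own number. The replicate block gave 10, 0, 12, 15 and 13 member probes in the same order of comparisons, beside 20.8%, 0.299%, 19.8%, 39.8% and 32.3% of all tested probes.

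Over all probes, 2747 changed in females, with 1822 under array weights, 1778 where detection on all arrays was required, 409 at a threshold of 0.5, 892 without control females 6 to 9 and 218 with control females 1 to 5 and Rapa females 1 to 4. In males 83 changed, with 2370 under median scaling, 491 with array weights, 146 without a detection filter, 30 for probes detected on all arrays, 38 with the replicate block, 4 with a random block of neighbouring animal numbers, 10 at 0.5, 51 without Rapa males 6 and 7, 146 without control male 3 and control female 9, and 28 (without control male 4) to 91 with single mice left out. For the difference between the sexes 2593 changed, with 4675 under median scaling, 1562 for probes detected on all arrays, 745 at 0.5, 1139 without control females 6 to 9 and 537 with the smaller female groups. Between the sexes 5107 differed on the control diet (2638 detected on all arrays, 966 at 0.5, 3267 without control females 6 to 9) and 4092 on Rapa (2596, 710, and 2695 with the smaller female groups). Median signal was 110.6 to 153.5 in females and 146.2 to 188.4 in males, which limits what is measured for dim probes. Differences between the sexes cannot be told apart from those of array brightness.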
